A study of Mus musculus with 6 samples.

Results

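The 29 Hox genes described here belong to the 4 mouse Hox clusters and were measured by 41 array probe sets in mouse bone marrow from 3 ASXL1-MT and 3 mock samples. They were taken by name: every probe set whose annotation gave exactly 1 symbol, that symbol being Hoxa, Hoxb, Hoxc or Hoxd with a number from 1 to 13, without Hoxa5, Hoxa7, Hoxa9 and Hoxa10. They make up 5 Hoxa, 9 Hoxb, 7 Hoxc and 8 Hoxd genes among the 18193 genes of the table. The rule uses names alone, but it was drawn up with earlier results of these data known, and the 4 Hoxa genes it leaves out are given below with their changes. Hox genes without a probe set of their symbol alone are not analysed here. Another 3 probe sets carried 2 Hox symbols each and were left out.

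The ASXL1-MT samples came from mice transplanted with cells labelled ASXL1-MT, which per the labels had developed a disease like myelodysplastic syndrome. The mock samples came from mock-transplanted mice, labelled as normal controls. In both groups the cells were myeloid bone marrow left after magnetic removal of cells carrying CD3e, B220 or TER-119, although the source label names that removal for mock alone. Strain, age, the vector and the share of marrow derived from donor cells are not given in the sources used here. Nor is the number of mice behind a sample. The p-values therefore set the group difference against the spread among these samples alone, and that spread may be technical.

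Hox genes encode homeodomain transcription factors that give cells along the body axis their positional identity. Genes with the same number in different clusters descend from 1 ancestral gene and form a paralogue group, and their order along a cluster follows the order in which they act from head to tail. In blood, Hoxa and Hoxb genes are chiefly active in stem and progenitor cells and are shut down as cells mature, while Hoxc genes have been linked to lymphoid cells. Polycomb complexes silence the clusters and the methyltransferase Kmt2a (MLL) keeps them active. ASXL1, whose truncating mutations recur in myelodysplastic syndrome, acts with the deubiquitinase BAP1 and with Polycomb.

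A value below is a log2 signal centred on the median of that probe set over the 6 arrays, and a gene's value is the mean of its probe sets. Changes are given as ASXL1-MT less mock, from the group means, so that 1 on this scale is 2-fold. A change passed where limma's moderated test, fitted over all 18193 genes and adjusted by the Benjamini-Hochberg method, gave an adjusted p under 0.05. Centring removed the levels, so no value shows how strongly a Hox gene was expressed, and values of different genes cannot be ranked. It also makes the 2 middle arrays of a probe set equal and opposite. The size of rounding steps in the values marks 17205 probe sets (38.2% of the table) as bright, which for base 2 means 3 arrays at a signal of 256 or more. Of the Hox probe sets, 6 of 41 were bright (14.6%), beside the 12.5% that rounding alone gives among probe sets 1 step dimmer.

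Hoxc4 and Hoxd11 were lower in ASXL1-MT marrow, and none of the 29 Hox genes passed as higher. Over all genes 11.4% passed, 4.75% as lower and 6.63% as higher, so the 2 lower Hox genes (6.9% of 29) are a share near that of the table. At limma's unadjusted p under 0.05, Hoxa2 and Hoxa3 were above mock (6.9%, against 18.1% of all genes), and Hoxb2, Hoxc4 and Hoxd11 below it (10.3%, against 10.9%), and in either direction the share was 17.2%, against 29.1%. The groups did not overlap in 2 genes with a positive change (6.9%, against 23.5% of all genes) and in 6 with a negative one (20.7%, against 14.4%), 27.6% in all, against 37.9%. The median change of the 29 genes was -0.25, against 0.11 for all genes, and without mock replicate 3 it was 0.046. Changes ran from -3.14 for Hoxc4 to 1.54 for Hoxa2. With 3 arrays a group, an exact permutation test of 1 gene cannot go below p = 0.1, so such a test was not used.

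**Figure D1:**
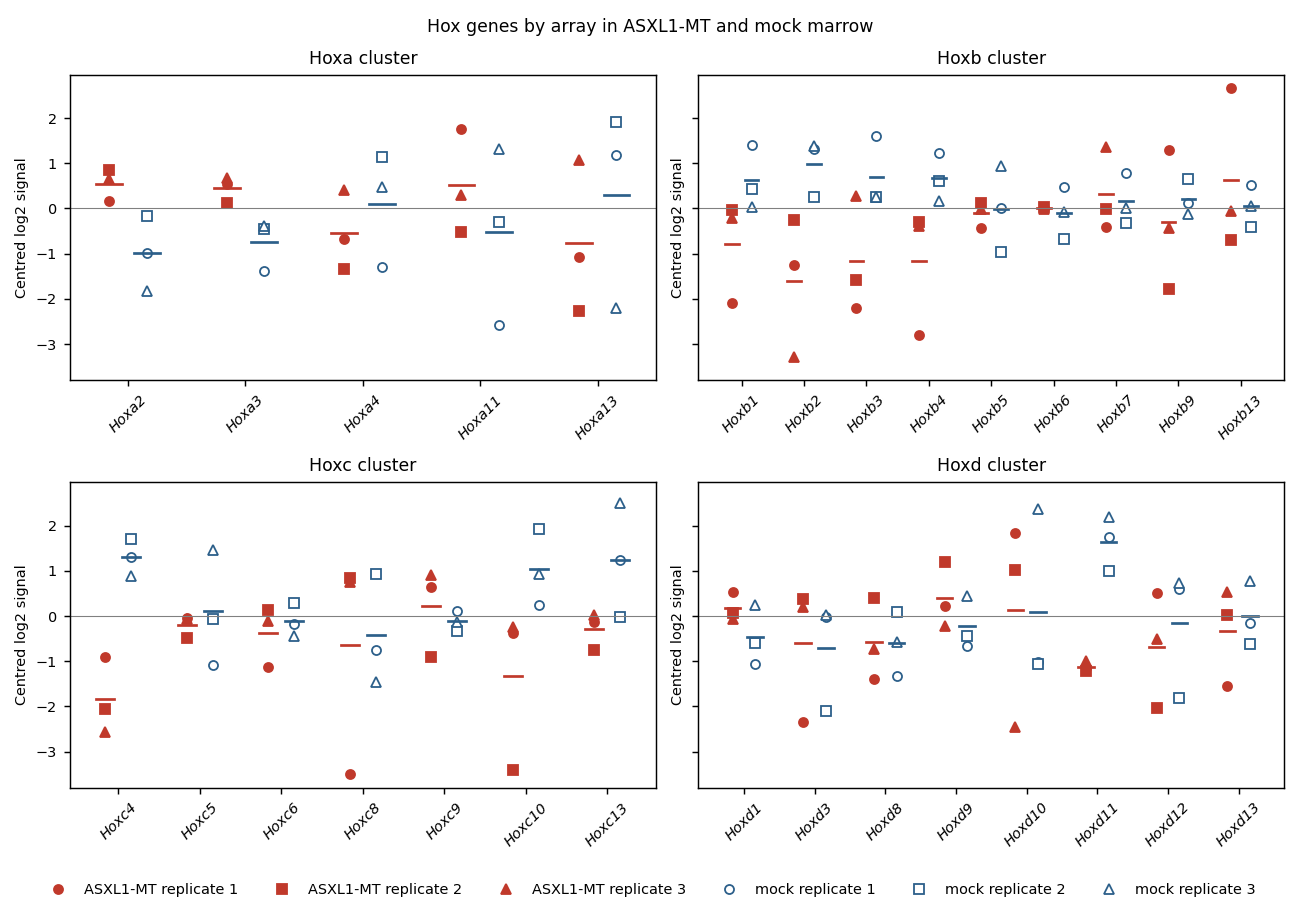
Centred log2 signal (vertical axis) of the 29 Hox genes, 1 panel per cluster, with ASXL1-MT arrays as filled red symbols left of mock arrays as open blue symbols. Symbol shape gives the replicate number and short lines are group means. Hoxc4 and Hoxd11 show all ASXL1-MT arrays below 0 and all mock arrays above it. So do Hoxb1, Hoxb2, Hoxb4 and Hoxc10, which did not pass. Hoxa2 and Hoxa3, which did not pass either, show the reverse. For a gene with 1 probe set, centring puts groups that do not overlap on opposite sides of 0.

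Arrays of 1 group differed more in these genes than in most others. The median SD within groups was 1.16 for the 41 Hox probe sets, against 0.44 for all probe sets and 0.81 for those not called bright. For the 29 genes the 95% interval of a change reached 1.69 to either side at the median, against 0.75 over all genes. The interval included 0 for 24 genes, and for 14 of these it included a 2-fold difference in both directions. For those 14 genes these arrays excluded neither a doubling nor a halving. Values of -2 or lower made up 17 of 123 Hox values (13.8%) in ASXL1-MT and 8 of 123 (6.5%) in mock, while over all probe sets they made up 3.51% in ASXL1-MT and 4.08% in mock.

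**Figure D2:**
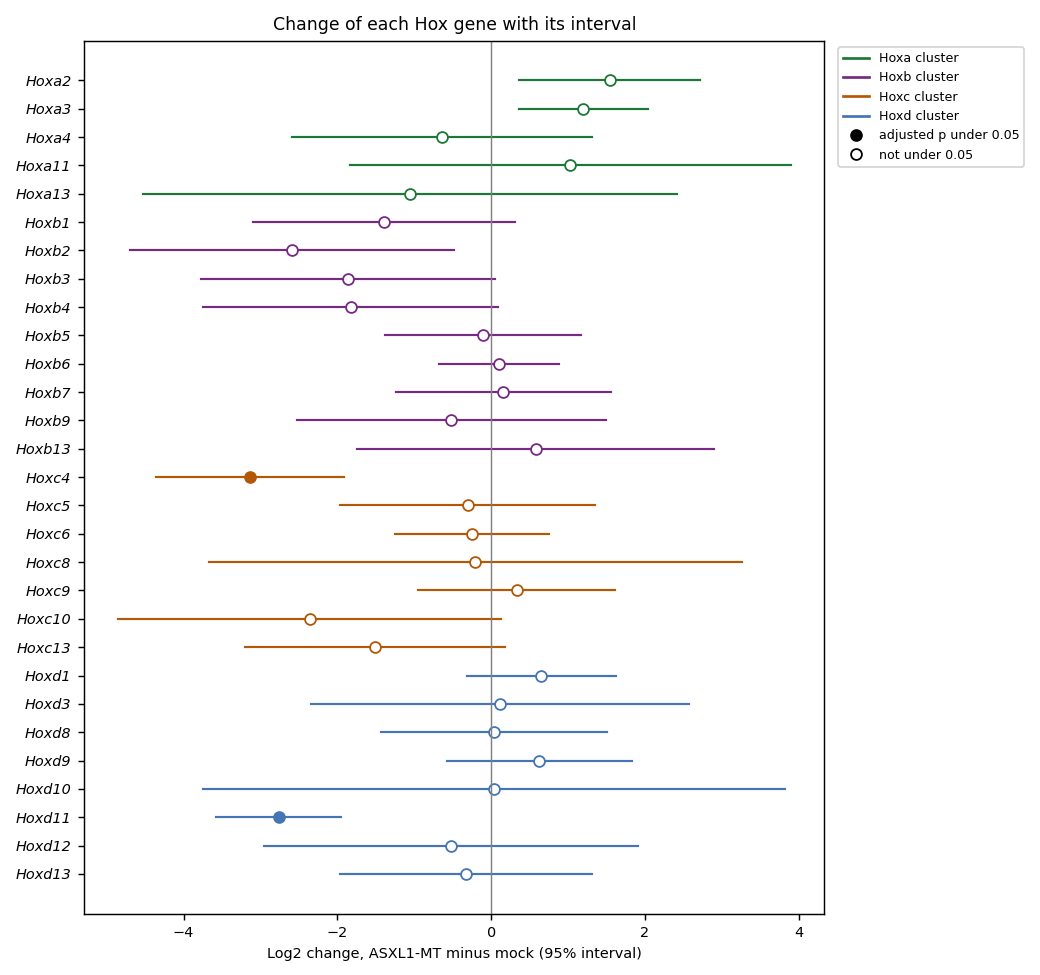
Log2 change of each Hox gene (horizontal axis, ASXL1-MT minus mock) with its 95% interval from limma, coloured by cluster. Filled points passed at an adjusted p under 0.05 and open points did not; the intervals of Hoxa2, Hoxa3, Hoxb2, Hoxc4 and Hoxd11 exclude 0.

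Hoxc4 sits at the 3′ end of its cluster and is known in mouse B cells for promoting antibody class switching. The ASXL1-MT arrays, replicates 1 to 3, read -0.90, -2.06 and -2.55, and the mock arrays in the same order read 1.30, 1.71 and 0.90. No ASXL1-MT array reached the lowest mock array. Hoxc4 was lower by 8.80-fold in ASXL1-MT, with a mean of -1.84 ± 0.85 against 1.30 ± 0.40 in mock (SD, n = 3 each) and an adjusted p = 0.0218 by limma. The log2 change was -3.14 with a 95% interval from -4.35 to -1.92. It rests on 1 probe set, 1422870_at, which was not bright and which also passed among all probe sets, where 3.37% passed as lower (adjusted p = 0.0291 by limma). When arrays were dropped 1 at a time, Hoxc4 passed in 1 fit of 6, the one without ASXL1-MT replicate 1 (adjusted p = 0.0281), and in the others limma's adjusted p was 0.0584 to 0.0793.

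Hoxd11, which with Hoxa11 shapes the forearm and the kidney, was lower by 6.78-fold in ASXL1-MT. The ASXL1-MT arrays read -1.14, -1.21 and -1.003, and the mock arrays read 1.75, 1.003 and 2.18. The ASXL1-MT arrays lay close together and the mock arrays were spread above them, with means of -1.12 ± 0.10 in ASXL1-MT and 1.65 ± 0.60 in mock (SD, n = 3 each). The log2 change was -2.76, its 95% interval ran from -3.57 to -1.95, and the adjusted p was 0.0136 by limma. Its single probe set, 1450584_at, was not bright either and passed among all probe sets (adjusted p = 0.0195 by limma). When arrays were dropped 1 at a time, Hoxd11 passed in 4 fits of 6, and missed without ASXL1-MT replicate 2 (adjusted p = 0.0568 by limma) or replicate 3 (adjusted p = 0.0611 by limma). Its probe set, with the same changes tested among all probe sets, passed in 1 of these 6 fits, without mock replicate 2 (adjusted p = 0.0449 by limma), and in the others the adjusted p was 0.0535 to 0.0810. How far the signals of either gene lay above background was not tested.

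**Figure D3:**
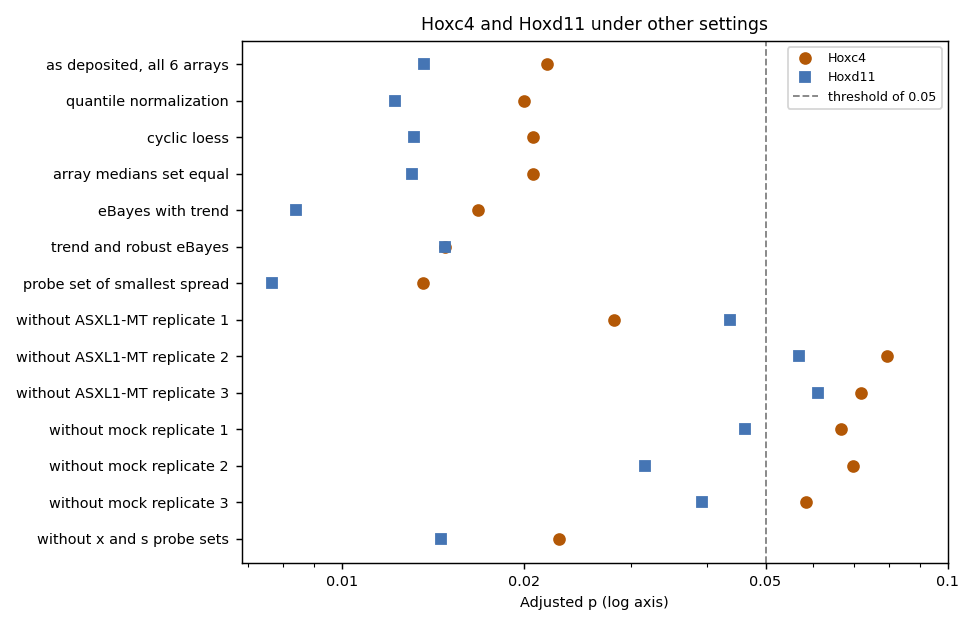
Adjusted p from limma (horizontal log axis) for Hoxc4 (circles) and Hoxd11 (squares) as deposited and under other settings, with the threshold of 0.05 dashed. The fit of bright probe sets alone, which holds neither gene, and the replicate block are not drawn. In the replicate block limma's adjusted p was 0.0985 for Hoxc4 and 0.0935 for Hoxd11. Values are from the fits over genes, where Hoxd11 lies left of the threshold in 4 and Hoxc4 in 1 of the 6 fits that drop an array; over probe sets each did so in 1 of 6.

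The promoters of these 2 genes are shown because they alone passed and because CpG-rich starts are a known feature of Polycomb targets. RefSeq windows of GRCm38.p6, from 250 bases before to 50 bases after a start, were found for 15 of the 29 genes in 16 windows, and each CpG is in capitals. Hoxc4 has 1 window (chr15:103034145-103034444, plus strand) and Hoxd11 has 2 for alternative starts, an upstream one (chr2:74679308-74679607, plus strand) and a downstream one (chr2:74682073-74682372, plus strand).
Hoxc4: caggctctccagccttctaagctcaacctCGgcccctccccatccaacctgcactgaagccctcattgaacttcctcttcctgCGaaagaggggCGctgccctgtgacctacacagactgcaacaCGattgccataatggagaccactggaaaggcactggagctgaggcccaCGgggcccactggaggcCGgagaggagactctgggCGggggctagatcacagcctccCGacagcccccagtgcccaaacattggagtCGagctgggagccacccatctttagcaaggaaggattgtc
Hoxd11, upstream start: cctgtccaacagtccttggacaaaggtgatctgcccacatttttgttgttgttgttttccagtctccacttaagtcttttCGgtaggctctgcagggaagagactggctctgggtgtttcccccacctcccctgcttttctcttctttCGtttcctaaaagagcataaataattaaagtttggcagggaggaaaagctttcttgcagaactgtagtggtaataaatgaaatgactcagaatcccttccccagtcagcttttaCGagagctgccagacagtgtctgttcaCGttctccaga
Hoxd11, downstream start: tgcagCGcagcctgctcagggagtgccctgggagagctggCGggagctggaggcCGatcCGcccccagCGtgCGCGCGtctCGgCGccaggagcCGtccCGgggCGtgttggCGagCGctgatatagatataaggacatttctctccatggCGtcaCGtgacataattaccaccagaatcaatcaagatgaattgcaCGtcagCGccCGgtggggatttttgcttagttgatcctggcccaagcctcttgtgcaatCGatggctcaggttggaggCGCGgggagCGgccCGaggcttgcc

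The Hoxc4 window holds 9 CpG, and the Hoxd11 windows hold 4 upstream and 25 downstream. The median was 17.5 over the 16 Hox windows and 7 over all 32841 windows of the table, and 54.2% of all windows hold fewer than Hoxc4. The downstream Hoxd11 window has more CpG than 81.6% of all windows and the upstream one more than 31.4%. The homeodomain core TAATTA, which reads the same on both strands, occurs in both Hoxd11 windows and not in that of Hoxc4, and 5.29% of all windows hold it. TGATTNAT, the letters bound by HOX with PBX, was searched on both strands and occurs in the downstream Hoxd11 window and in that of Hoxa2, against 3.22% of all windows. It does not overlap TAATTA there. TATAAA, searched on both strands, occurs in neither gene, against 13.6% of all windows. These are matches of letters, and the arrays say nothing of binding.

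In the Hoxa cluster, the 3′ genes Hoxa2 and Hoxa3 had positive changes whose groups did not overlap, and neither passed. Hoxa2, which patterns the second pharyngeal arch, stood at 0.16, 0.84 and 0.65 in the ASXL1-MT arrays and at -0.98, -0.16 and -1.83 in the mock arrays. Every ASXL1-MT array was above every mock array, and the log2 change was 1.54 (SE 0.47, adjusted p = 0.0960 by limma). Hoxa3, needed for thymus and parathyroid, stood at 0.53, 0.13 and 0.68 in the ASXL1-MT arrays and at -1.39, -0.46 and -0.39 in the mock arrays, and its groups were also apart. The Hoxa3 change was 1.19 (SE 0.33, adjusted p = 0.0806 by limma), and its 4 probe sets ran from 0.19 to 2.45. In a fit of bright probe sets alone Hoxa3 passed as higher on 1427433_s_at, at 1.45 (adjusted p = 0.0457 by limma). The ending of that probe set's name means that it can match several transcripts.

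Hoxa11, the paralogue of Hoxd11, stood at 1.76, -0.52 and 0.29 in the ASXL1-MT arrays and at -2.58, -0.29 and 1.32 in the mock arrays. Its groups overlapped and the change of 1.03 had an SE of 1.14 (adjusted p = 0.609 by limma). The Hoxa11 change was 0.40 without ASXL1-MT replicate 1, 1.55 without ASXL1-MT replicate 2, and dropping mock replicates 1 or 3 gave -0.0016 or 1.95. Hoxa4 had a change of -0.64 and Hoxa13, a gene of the digits and the genital tract, one of -1.05, both with overlapping groups. The median of the 5 genes was 1.03, which became 0.40 without ASXL1-MT replicate 1 and -0.0016 without mock replicate 1. Just outside the set, Hoxa5, Hoxa7 and Hoxa9 passed as higher with changes of 2.44, 3.09 and 3.46, and Hoxa10 did not pass at 2.21. The difference between those 4 genes and the 5 Hoxa genes described here was not tested.

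The Hoxb genes numbered 1 to 4 had negative changes of -1.40, -2.59, -1.87 and -1.83, and none passed. This run of neighbours was picked out after its values were seen. Hoxb1, a hindbrain gene, stood at -2.09, -0.03 and -0.21 in the ASXL1-MT arrays and at 1.40, 0.44 and 0.03 in the mock arrays (adjusted p = 0.243 by limma). The Hoxb1 groups did not overlap, but ASXL1-MT replicate 2 and mock replicate 3 nearly met, and the change was -0.74 without ASXL1-MT replicate 1. Hoxb2, which also acts in the hindbrain, stood at -1.25, -0.26 and -3.29 in the ASXL1-MT arrays and at 1.32, 0.26 and 1.39 in the mock arrays (adjusted p = 0.111 by limma). All 3 ASXL1-MT arrays were below mock, and the change was -1.75 without ASXL1-MT replicate 3. Its probe set 1449397_at was bright, and in the fit of bright probe sets alone Hoxb2 passed as lower at -2.59 (adjusted p = 0.0451 by limma). The bright probe sets cover 5 Hox genes, of which Hoxa3 passed as higher and Hoxb2 as lower, in a fit where 43.8% of all 9421 genes passed, so 2 of 5 is near the share of the table.

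Hoxb3 stood at -2.20, -1.57 and 0.28 in the ASXL1-MT arrays and at 1.61, 0.25 and 0.25 in the mock arrays, and its groups overlapped through ASXL1-MT replicate 3 (adjusted p = 0.179 by limma). Hoxb4, which expands blood stem cells when overexpressed, stood at -2.79, -0.29 and -0.39 in the ASXL1-MT arrays and at 1.23, 0.61 and 0.17 in the mock arrays (adjusted p = 0.186 by limma). The Hoxb4 groups did not overlap, and ASXL1-MT replicate 1 was far below the others. Its 2 probe sets had changes of -0.59 for 1451761_at and -3.07 for 1460379_at, and 1460379_at read -5.35 in ASXL1-MT replicate 1. Without that array the Hoxb4 change was -1.01. The other Hoxb genes, Hoxb5, Hoxb6, Hoxb7, Hoxb9 and Hoxb13, had changes of -0.10, 0.10, 0.16, -0.52 and 0.58, each with overlapping groups and adjusted p from 0.719 to 0.916 by limma. Hoxb6 had the narrowest interval of all 29 genes, from -0.68 to 0.89. The median of the 9 Hoxb genes was -0.52, and it was -0.21 without ASXL1-MT replicate 2.

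**Figure D4:**
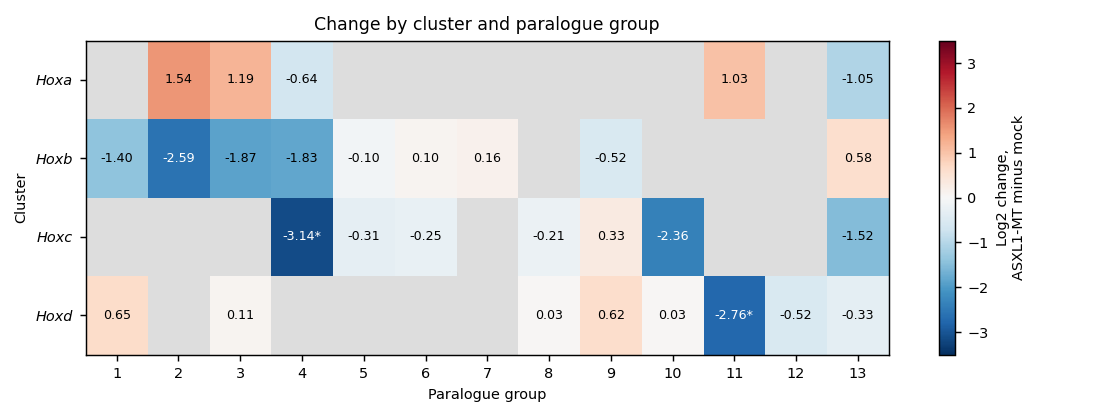
Log2 change (colour and printed value, ASXL1-MT minus mock) of the 29 Hox genes by cluster (rows) and paralogue group (columns). An asterisk marks an adjusted p under 0.05 by limma, and grey marks a place with no gene among the 29. Hoxa5, Hoxa7, Hoxa9 and Hoxa10 were measured but left out by the rule, so their places are grey too. Hoxc4 at -3.14 and Hoxd11 at -2.76 carry asterisks, and the 4 Hoxb genes at the left are all negative.

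Beyond Hoxc4, 6 Hoxc genes did not pass. Hoxc10, a gene of lumbar motor neurons, stood at -0.37, -3.40 and -0.24 in the ASXL1-MT arrays and at 0.24, 1.92 and 0.93 in the mock arrays. The Hoxc10 groups did not overlap, yet the change of -2.36 (SE 0.99, adjusted p = 0.189 by limma) was -1.33 without ASXL1-MT replicate 2. Hoxc13, which controls hair keratins, stood at -0.13, -0.74 and 0.03 in the ASXL1-MT arrays and at 1.24, -0.03 and 2.50 in the mock arrays, with overlapping groups and a change of -1.52 (adjusted p = 0.209 by limma), which was -0.88 without mock replicate 3. Hoxc5, Hoxc6, Hoxc8 and Hoxc9 had changes of -0.31, -0.25, -0.21 and 0.33, and their groups overlapped. Of the 7 Hoxc genes 6 had a negative change, with a median of -0.31. That median was -0.94 without ASXL1-MT replicate 2, -0.90 without ASXL1-MT replicate 3, -0.90 without mock replicate 1 and -0.73 without mock replicate 3.

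In the Hoxd cluster Hoxd11 stood between neighbours that did not pass. Hoxd10 had a change of 0.03 with a 95% interval from -3.75 to 3.82, and Hoxd12 one of -0.52 with an interval from -2.95 to 1.91. These intervals include the change of Hoxd11, and differences between the 3 genes were not tested. Hoxd1 stood at 0.53, 0.07 and -0.07 in the ASXL1-MT arrays and at -1.07, -0.60 and 0.25 in the mock arrays (change 0.65, adjusted p = 0.333 by limma). Dropping mock replicate 1 gave a Hoxd1 change of 0.35, and dropping mock replicate 3 gave 1.01. Hoxd9 stood at 0.23, 1.197 and -0.23 in the ASXL1-MT arrays and at -0.66, -0.45 and 0.43 in the mock arrays (change 0.62, adjusted p = 0.452 by limma). The Hoxd9 change was 0.23 without ASXL1-MT replicate 2, 0.94 without ASXL1-MT replicate 3, and dropping mock replicates 1 or 3 gave 0.41 or 0.95. The groups of both genes overlapped. Hoxd3, Hoxd8 and Hoxd13, the last a gene of the digits, had changes of 0.11, 0.03 and -0.33. The median of the 8 Hoxd genes was 0.03, and dropping an array moved it between -0.57 (without mock replicate 2) and 0.36 (without ASXL1-MT replicate 1).

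By paralogue group, the 3 measured genes of group 4 (Hoxa4, Hoxb4 and Hoxc4) all had negative changes, with a median of -1.83, of which Hoxc4 passed. That median was -1.01 without ASXL1-MT replicate 1, -0.59 when each gene was read from its least variable probe set and -0.29 on bright probe sets, where Hoxa4 alone was left. The members of group 2 pointed apart, with 1.54 for Hoxa2 and -2.59 for Hoxb2, and so did those of group 3, with 1.19 for Hoxa3, 0.11 for Hoxd3 and -1.87 for Hoxb3. Group 11 held Hoxa11 at 1.03 and Hoxd11 at -2.76. Groups 5 to 8 hold 7 of the genes described here, with changes between -0.31 and 0.16, and none of these 7 passed. Their interval from limma was narrowest for Hoxb6, from -0.68 to 0.89, and widest for Hoxc8, from -3.68 to 3.26. A change near 0 therefore excluded neither a doubling nor a halving for genes such as Hoxc8. Hoxa5 and Hoxa7, of groups 5 and 7, passed as higher but were left out by the rule. In group 13 the changes of Hoxa13, Hoxb13, Hoxc13 and Hoxd13 were -1.05, 0.58, -1.52 and -0.33. The median was 0.11 for the 7 anterior genes of groups 1 to 3 and -0.23 for the 10 central genes of groups 4 to 8. For the 12 posterior genes of groups 9 to 13 it was -0.43. Of these genes 0 anterior, 1 of 10 central and 1 of 12 posterior passed, beside 11.4% of all genes. The rule took Hoxa5 and Hoxa7 (2.44 and 3.09) out of the central groups and Hoxa9 and Hoxa10 (3.46 and 2.21) out of the posterior ones. These medians and counts therefore leave those genes out, and differences between the medians were not tested.

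Where a gene had several probe sets, the signs of their changes often differed, and differences between probe sets were not tested. There were 8 such genes with 20 probe sets, and in 4 of them (Hoxa3, Hoxa4, Hoxb3 and Hoxb4) all probe sets had the same sign. Hoxc5 had changes of 1.08, -0.28 and -1.72 over its 3 probe sets. Hoxc6 had -0.996 for 1427361_at, 1.02 for 1427362_x_at and -0.79 for 1427454_at, and the first ran opposite to a probe set whose name marks possible cross-hybridization. Hoxd8 had 0.17 and -0.11, and Hoxd13 had 0.13 and -0.79. None of the 20 probe sets passed. Of all 41, 0 passed as higher and 2 as lower (4.88%), against 4.73%, 3.37% and, in either direction, 8.1% of all probe sets. At limma's unadjusted p under 0.05 there were 3 above mock and 4 below (7.32% and 9.76%, 17.1% together), against 16.1%, 10.2% and 26.3% of all probe sets. Among all 41, 4 had ASXL1-MT wholly above mock (9.76%, against 21.7% of all probe sets) and 7 wholly below (17.1%, against 13.7%), 26.8% together, against 35.4%.

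**Figure D5:**
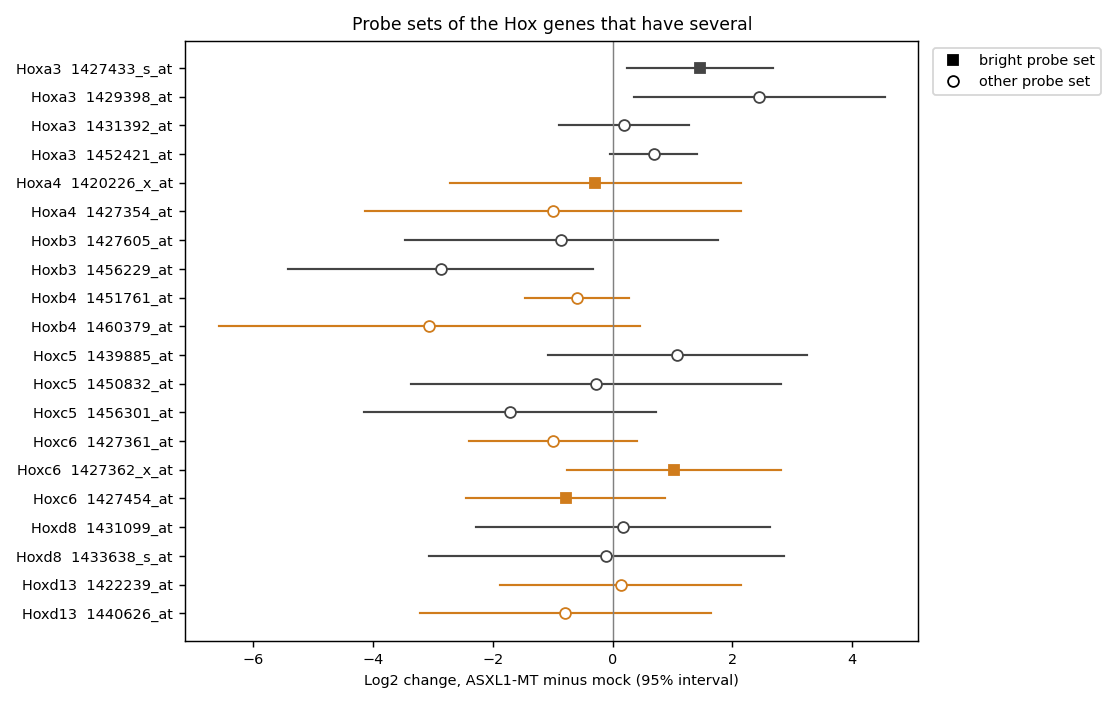
Log2 change with 95% interval (horizontal axis, ASXL1-MT minus mock) of the 20 probe sets of the 8 Hox genes that have several, in alternating colours by gene, with bright probe sets as filled squares. The probe sets of Hoxa3 are all above 0, those of Hoxa4, Hoxb3 and Hoxb4 all below 0, and those of Hoxc5, Hoxc6, Hoxd8 and Hoxd13 lie on both sides.

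Of the 41 Hox probe sets, the lowest array was ASXL1-MT replicate 1 in 11, replicate 2 in 11 and replicate 3 in 3, and mock replicate 1 in 10, replicate 2 in 3 and replicate 3 in 3. As shares these were 26.8%, 26.8% and 7.32% for the ASXL1-MT arrays and 24.4%, 7.32% and 7.32% for the mock arrays. Over all probe sets the shares were 16.1%, 13.1% and 14.8% for the ASXL1-MT arrays and 21.0%, 16.02% and 19.0% for the mock arrays. ASXL1-MT replicates 1 and 2 were thus lowest more often than in the table as a whole, while mock replicate 1 was near its share of the table. Probe sets of 1 gene are not independent, and these shares were not tested. Values of -2 or lower numbered 7, 6 and 4 in the ASXL1-MT arrays and 4, 2 and 2 in the mock arrays. The highest array was a mock one in 24 probe sets, 6, 9 and 9 of them by replicate (14.6%, 22.0% and 22.0%, against 17.1%, 14.8% and 13.2% of all probe sets).

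Genes that work with the Hox proteins or on their clusters were read from lists, at the gene level, where 6.63% of all genes passed as higher and 4.75% as lower, and 18.1% and 10.9% did so at an unadjusted p under 0.05. Of 8 measured TALE cofactors, which bind DNA together with HOX proteins, Pbx3 and Meis1 were lower and none was higher. Pbx3 was lower by 10.7-fold (log2 change -3.42, adjusted p = 0.0193 by limma) and Meis1 by 3.86-fold (adjusted p = 0.0469 by limma), and the median of the list was -0.64. Of 20 activators of Hox transcription, such as Kmt2a, Men1 and Dot1l, 0 passed in limma's test, with 5 higher and 2 lower at an unadjusted p under 0.05 and a median of -0.08. Of 21 Polycomb and other repressors, Bmi1 was higher by 2.26-fold (adjusted p = 0.0192 by limma) and none was lower, with a median of 0.09. The 14 genes that flank the clusters had 0 passing in either direction by limma, 5 higher and 0 lower at an unadjusted p under 0.05, and a median of 0.47. The 13 other homeobox genes of the same superclass, such as Pdx1 and Gbx2, had 0 passing, 1 higher and 0 lower at an unadjusted p under 0.05, and a median of -0.27. Their median SD within groups, 1.03, stood beside 0.94 for the 29 Hox genes.

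Marker genes of several cell types differed between the groups, and since centring removed the levels no marker could be read as absent. Of 16 stem and progenitor genes, 5 were higher (among them Flt3, Mecom and Cd34 at 11.3-fold, 6.19-fold and 2.71-fold) and 1 was lower, Spi1, with list means of 0.09 to 0.22 in ASXL1-MT and -0.43 to -0.19 in mock. Beside these counts, 6.63% of all genes passed as higher and 4.75% as lower. Hlf had the lowest log2 change of these 16 genes, at -3.18 with groups apart, and did not pass (adjusted p = 0.0548 by limma). Among 13 neutrophil genes 7 passed as lower and 0 as higher, with list means of -0.83 to -0.62 in ASXL1-MT and 0.50 to 0.67 in mock. Of 18 stroma and bone genes, whose limb cells express posterior Hox genes, 3 were higher and 1 was lower (Pdgfrb at 2.07-fold). The higher ones were Bgn, Cxcl12 and Col3a1, by log2 changes of 2.62, 2.33 and 1.68. Col1a1 had the lowest log2 change of these 18 genes, at -1.48 with groups apart, and did not pass (adjusted p = 0.103 by limma). The list means were -0.14 to 0.29 in ASXL1-MT and -0.77 to -0.31 in mock. Markers of lymphoid cells were mixed: 4 of 13 T and NK genes were higher (Cd8b1, Cd8a, Klrd1 and Klrk1) and 1 lower (Nkg7). Cd3d had the lowest log2 change of these 13 genes, at -2.82 with groups apart, and did not pass (adjusted p = 0.0613 by limma). Of 11 B cell genes 2 were higher and 0 lower. All 9 erythroid genes had positive changes, and 1 of them passed as higher. List means were -0.01 to 0.52 in ASXL1-MT and -1.27 to 0.25 in mock for T and NK genes, -0.31 to 0.29 in ASXL1-MT and -0.51 to 0.89 in mock for B cell genes, and 0.24 to 1.67 in ASXL1-MT and -0.92 to -0.36 in mock for erythroid genes. Of 6 endothelial genes 0 passed by limma, with 2 higher and 0 lower at an unadjusted p under 0.05 (18.1% and 10.9% of all genes). Their list means were -0.0033 to 0.25 in ASXL1-MT and -0.51 to -0.10 in mock. Bright probe sets were found for 12 of 13 neutrophil genes, against 7 of 13 T and NK, 4 of 11 B cell, 2 of 9 erythroid, 6 of 18 stroma and 1 of 6 endothelial genes. The part of these cell types in the changes of Hoxc4 and Hoxd11 was not tested, and in bulk marrow fewer cells of a type and less RNA per cell cannot be told apart.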

How the data were processed

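The labels' sample titles gave the groups (3 ASXL1-MT, 3 mock) and the replicate numbers. MAS5 produced the array signals, per the submitters' processing notes. What was deposited are log values, taken here as log2, centred per probe set (row medians 0 to within 5e-07). No label states base, centring or floor. In 425 of 45037 probe sets the lowest value was shared by arrays, as a floor on dim signals gives. The series text names array 430A, but the content it states and the table are those of a larger array.

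The platform annotation gave 34945 probe sets 1 symbol, 932 several and 9160 none here. Gene values are means of a gene's probe sets, 18193 genes in all. limma 3.58.1 in R 4.3.3 (lmFit, eBayes without trend, group as the only term, 2-sided, Benjamini-Hochberg, threshold 0.05) was fitted over the whole table and tested on simulated data. Over all genes 11.4% passed, and 8.1% of probe sets did. Bright means that the 3 highest arrays lie on steps of 20 binary places, within 0.1 of a step. The number of arrays limits the precision.

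Named genes were those passing, the 3 of smallest p in each cluster, and those with groups apart by a change of 1 or more. The 12 gene lists (179 entries) and the members were chosen with earlier results of these data known. Alternatives were other scalings, variance models, bright probe sets alone, the probe set of smallest spread, leaving out each array and a replicate block. Leaving out probe sets ending in _x_at or _s_at was chosen after seeing the data. Deviations of same-numbered samples correlated at -0.0088, -0.012 and -0.0090, so no pairing by number was seen. With 3 samples a group such correlations cannot exclude a pairing.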

Additional observations from a re-analysis of the deposited data

How the results depend on the processing

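Hoxc4 and Hoxd11 kept their direction in all 14 alternatives run on them and passed in 8 and 11. Scaling did not change their calls, while over all genes the higher calls were 58.3% as deposited, 47.6% after quantile normalization, 46.6% after cyclic loess and 49.3% with equal array medians. The other 11 named genes kept their side of the threshold, except Hoxa3 and Hoxb2 on bright probe sets alone, and the Hoxa11 change ran from -0.0016 (without mock replicate 1) to 1.95 (without mock replicate 3). With the replicate block, which leaves 2 residual degrees of freedom, 0 probe sets and 0 genes passed by limma, Hox ones included, with 9874 and 4568 at an unadjusted p under 0.05, and adjusted p was 0.0985 for Hoxc4 and 0.0935 for Hoxd11. The cause of these losses beyond fewer degrees of freedom was not tested.

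Over all features 3646 probe sets and 2072 genes passed. Probe sets numbered 5816 with trend and robust settings and 6778 of 17205 on bright probe sets alone, where 4128 of 9421 genes passed, and 3898 genes passed with the probe set of smallest spread. When 1 array was dropped, 66 to 1142 probe sets and 192 to 1033 genes passed, of which 0 to 1 Hox probe sets and 0 to 2 Hox genes. The median change of the 29 genes lay between -0.38 and 0.046 when 1 array was dropped (0.046 without mock replicate 3), that of Hoxa from -0.0016 to 1.35, Hoxb from -0.74 to -0.21, Hoxc from -0.94 to -0.38 and Hoxd from -0.57 to 0.36. On bright probe sets alone, with fewer genes, the medians were 0.12 for 5 Hox genes, -2.59 for Hoxb (1 gene) and 0.12 for Hoxc (1 gene). The Hoxc median was -0.996 when each gene was read from its least variable probe set, and -0.89 without probe sets ending in _x_at or _s_at.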

Other observations

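Antisense and long noncoding transcripts of the Hox clusters were measured by 5 probe sets that are no part of the comparison above. Of these 0 passed by limma, against 8.1% of all probe sets. At limma's unadjusted p under 0.05 there was 1, against 26.3% of all probe sets. Hoxb5os, antisense to Hoxb5, had a log2 change of -2.86 (adjusted p = 0.189 by limma), beside -0.10 for Hoxb5 itself. Its probe set was not bright and read -0.98, -4.63 and -0.60 in the ASXL1-MT arrays, so replicate 2 was far below the others. The 2 probe sets of Hoxa11os, antisense to Hoxa11, had changes of -1.99 and 1.49, and those of Hoxd3os1 had 2.32 and 0.81. The adjusted p of these 4 probe sets ran from 0.211 to 0.776 by limma.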
